A study of Mus musculus with 36 samples.

Results

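The 12 tumors described here carried the BPTF knockdown (BPTF KD) label and grew in BALB/c mice: 6 arose from 67NR cells and 6 from 66cl4 cells, chosen by their labels out of 36 tumors in the series. 67NR and 66cl4 are mouse mammary carcinoma cell lines that were isolated from 1 parent tumor, the source of the 4T1 series. Both received retroviral short hairpin RNAs against *Bptf*, of which 2 sequences were used. The labels do not tell which tumor carried which hairpin. The 67NR tumors started from 100000 cells in the fourth mammary fat pad and were taken on day 21, and the 66cl4 tumors started from 10000 cells in the same place and were taken on day 28. Line, cell dose and harvest day therefore cannot be told apart in any difference given here. The mice were young adult females according to the study's methods. The same contrast was read in 12 BPTF KD tumors from NSG mice (NOD/SCID/Ifrg2r -/-) and in 6 control tumors from BALB/c mice, 3 per line, which share no tumor with the 12. Total RNA of whole tumors was measured on Affymetrix arrays as log2 signals, on which 1 unit is a doubling, and a difference is always 67NR minus 66cl4. In bulk tumor RNA, fewer cells of a type and less RNA per cell cannot be told apart.

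BPTF is the subunit that defines NURF, a chromatin remodeling complex that slides nucleosomes and reads histone marks. Immune cells enter a mammary tumor along gradients of chemokines, and lymphocytes that recognise the tumor release interferon gamma and cytotoxic granules. NSG mice lack mature T, B and NK cells, while BALB/c mice have them. The comparison asks which genes separate the tumors of these sister lines that both carry the BPTF KD label in a host with lymphocytes.

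*Bptf*, the targeted gene, was measured first because it checks the labels. Its brightest probe set read 9.82, 10.68, 10.12, 9.83, 10.48 and 8.34 in 67NR tumors 1 to 6. The 66cl4 tumors read 8.68, 9.12, 8.89, 8.81, 9.11 and 8.88. Thus 5 of 6 67NR tumors lay above every 66cl4 tumor, and 67NR tumor 6 lay below all of them. The difference was 0.96 ± 0.31 (SE, n = 6 per line; two-sided exact permutation p = 0.0195 over 924 splits), and it missed the threshold across all genes (limma adjusted p = 0.061). The other 3 probe sets differed by 1.43, 0.34 and 0.44, with exact permutation p of 0.0411, 0.0498 and 0.264. Against control tumors of the same line and host, *Bptf* was 1.09 lower in the 66cl4 tumors (exact permutation p = 0.0119, the smallest that 6 against 3 tumors allow). In the 67NR tumors it was 0.06 lower (9.88 ± 0.83 against 9.93 ± 0.33, SD, n = 6 and 3, exact permutation p = 0.929). The brightest probe set thus did not separate 67NR tumors labelled BPTF KD from their controls, and BPTF KD stands below for the label. The other 3 probe sets were not set against controls. The study examined BPTF protein by Western blot in extracts of the cell lines, which is a different measure from tumor RNA. Of the 6 measured members of the NURF list, *Hmgxb4* and the ATPase *Smarca5* were higher in 66cl4 (-0.54 and -0.43, adjusted p = 0.0432 and 0.0461), both with overlapping tumors. The NURF count higher in 67NR was 1 without 67NR tumor 6, and that higher in 66cl4 was 0 without 67NR tumor 2, 3, 4 or 5 or 66cl4 tumor 2, 3, 4, 5 or 6 and 1 without 67NR tumor 6 or 66cl4 tumor 1. *Smarca1*, the ATPase of NURF, differed by 0.32 (adjusted p = 0.552), or -0.12 without 67NR tumors 1 and 3. *Hmgxb4* and *Smarca5* missed the threshold in 10 of the 12 fits with 1 tumor left out.

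The 67NR tumors differed from each other far more than the 66cl4 tumors did. The median standard deviation of a gene was 0.337 in 67NR and 0.175 in 66cl4, and 83.1% of genes varied more in 67NR. Control 67NR tumors in the same host had a median standard deviation of 0.140. Mean correlations of a tumor with its own group ran from 0.948 to 0.975 in 67NR and from 0.990 to 0.992 in 66cl4. Tumors 1 and 3 had the lowest of these, 0.948 and 0.952, and correlated more with the 66cl4 tumors (0.960 and 0.955). Tumor 6 also correlated slightly more with the 66cl4 tumors than with its own group (0.962 and 0.961). *Rpl39l*, a ribosomal protein paralog, read 14.17 and 12.29 in tumors 1 and 3 and 6.07 to 7.60 in the other 4. *Matn2*, a matrix protein of the matrilin family, read 11.07 and 8.82 against 4.18 to 5.26. Both genes were also high in 67NR BPTF KD tumors from NSG mice, where *Rpl39l* read 13.44 to 14.09 and *Matn2* 11.35 to 11.82, and low in 67NR controls from BALB/c mice, where they read 6.29 to 7.82 and 4.95 to 5.13. Over all probe sets, tumor 1 correlated slightly more with the mean 67NR BPTF KD tumor from NSG mice than with the mean 67NR control from BALB/c mice (0.957 and 0.954), while tumor 3 correlated more with the latter (0.934 and 0.941), as did the other 4 by a wider gap. Counts of gene lists are therefore also given with 67NR tumors 1 and 3 left out, an alternative chosen after the data were seen, where those tumors move them. RNA integrity was read from 3' and 5' probe sets. The mean of the 3' minus 5' signal of actin and Gapdh was 0.797 in 67NR and 0.792 in 66cl4 (two-sided exact permutation p = 0.974), although tumor 1 reached 1.32 where the others stayed at or below 0.885. For Gapdh alone it was 0.330 in 67NR and 0.205 in 66cl4 (exact permutation p = 0.0714).

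**Figure D1:**
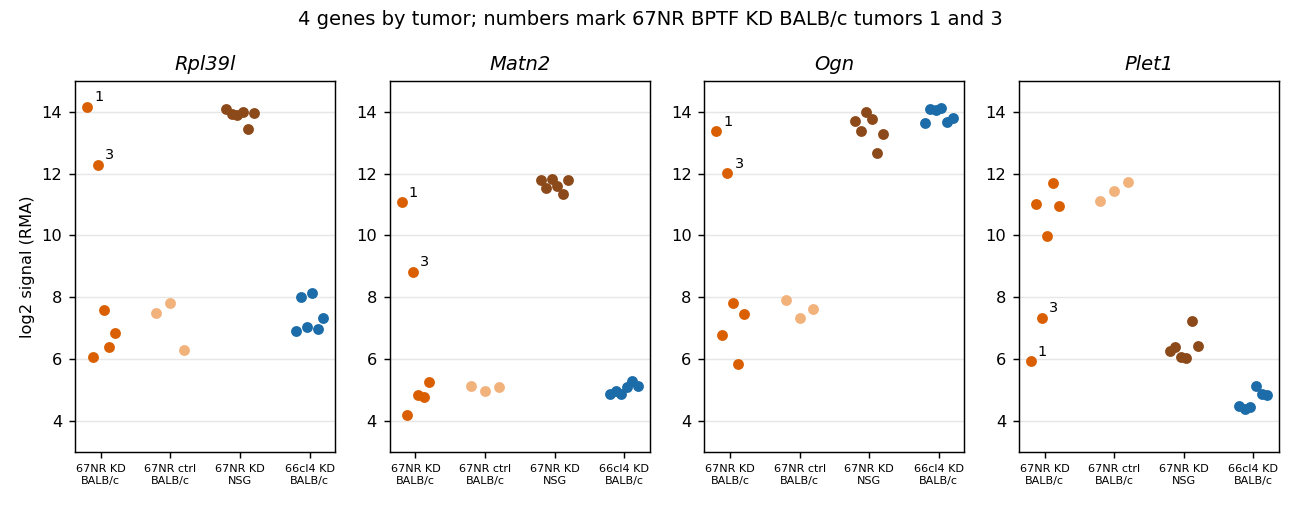
Log2 signal (vertical axes) of *Rpl39l*, *Matn2*, *Ogn* and *Plet1* in each tumor of 4 groups, with 67NR BPTF KD BALB/c tumors 1 and 3 numbered. In *Rpl39l* these tumors read 14.17 and 12.29, against the NSG group at 13.44 to 14.09 and the BALB/c controls at 6.29 to 7.82.

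Across 12394 genes, 1741 differed between the lines (limma, adjusted p under 0.05), which is 14.0% of those tested. Of these, 728 were higher in 67NR (5.87%) and 1013 were higher in 66cl4 (8.17%). Counts of gene lists below are to be read beside these shares. The 6 tumors of each line did not overlap for 314 genes with 67NR above (2.53%) and for 526 genes with 66cl4 above (4.24%). The median difference over all genes was 0.02. Without 67NR tumors 1 and 3 the fit called 3611 genes, and leaving out single tumors gave 1186 to 2774, the most without 67NR tumor 1.

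The line difference was also read in tumors that share no tumor with these. Of the 1741 genes, 1674 had the same sign in the 6 control tumors from BALB/c mice (96.2%, against 67.7% of all genes), and 1156 passed the threshold there in that direction, with 1 passing in the other. In BPTF KD tumors from NSG mice 1540 had the same sign (88.5%, against 66.8% of all genes). There 1259 passed in the same direction and 64 in the opposite one. Across genes, which are not independent replicates, the differences correlated at 0.754 with the control contrast and at 0.613 with the NSG contrast. The line difference was called for more genes elsewhere, with 26.1% of genes in the control contrast of 3 against 3 and 42.5% in the NSG contrast of 6 against 6. In the NSG contrast 20.4% of genes were higher in 67NR and 22.1% in 66cl4. Counts of gene lists in NSG mice are to be read beside these larger shares. The line difference changed with the host for 9.0% of genes, being higher in BALB/c mice for 4.26% and lower for 4.74% (limma interaction over the 24 BPTF KD tumors).

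**Figure D2:**
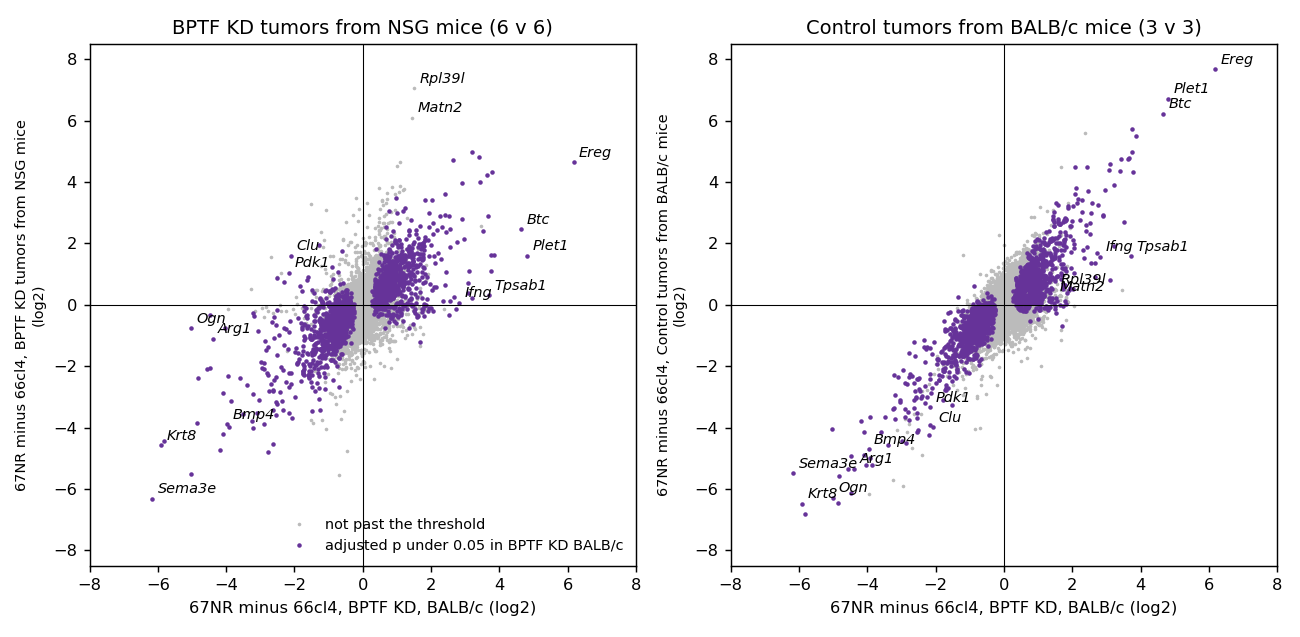
Each point is 1 gene; the horizontal axes give the 67NR minus 66cl4 difference in BPTF KD tumors from BALB/c mice (log2) and the vertical axes the same difference in BPTF KD tumors from NSG mice (left) or control tumors from BALB/c mice (right). *Ereg* and *Sema3e* lie at opposite ends in both panels, while *Ifng* and *Tpsab1* lie near 0 in NSG mice (0.07 and 0.31) and *Rpl39l* lies at 7.06 there and 0.52 in controls.

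2 of the 3 genes with the largest differences towards 67NR encode growth factors of the EGF family. *Ereg*, which encodes the EGF receptor ligand epiregulin, ran from 8.66 to 11.33 with a median of 10.38 in the 67NR tumors and from 3.38 to 4.14 with a median of 3.83 in the 66cl4 tumors. Every 67NR tumor was far above every 66cl4 tumor, and the difference was 6.17 ± 0.41 (SE, adjusted p = 1.62e-06). Its 66cl4 signals lay far below the median gene at 7.65, and no detection call was used here, so no fold is given. *Btc*, the related ligand betacellulin, ran from 7.71 to 11.79 with a median of 10.39 in the 67NR tumors and from 5.04 to 5.84 with a median of 5.32 in the 66cl4 tumors. The groups were again apart, with a difference of 4.65 ± 0.56 (SE, adjusted p = 0.00021). Of the 11 measured EGF family genes, *Egf* and the receptor *Erbb2* were higher in 66cl4 (-0.47 and -0.52, adjusted p = 0.0273 and 0.0359), and the other 7 did not pass. *Egf* read 4.30 to 4.96 in 67NR and 4.91 to 5.27 in 66cl4, below the median gene in both lines. The EGF family count higher in 66cl4 was 0 without 67NR tumor 4 or 66cl4 tumor 3, 4, 5 or 6 and 1 without 67NR tumor 2, 5 or 6 or 66cl4 tumor 1 or 2. Of the EGF family genes, 3 were higher in 67NR and 1 in 66cl4 (median 0.02) with 67NR tumors 1 and 3 both left out. Both *Ereg* and *Btc* also differed in NSG mice, by less (4.65 and 2.46), and the change of the difference with the host was 1.53 ± 0.47 (SE, adjusted p = 0.0418) for *Ereg* and 2.19 ± 0.66 (SE, adjusted p = 0.0399) for *Btc*. *Erbb2* missed the threshold in 8 and *Egf* in 7 of the 12 fits with 1 tumor left out, and *Erbb2* also missed it without 67NR tumors 1 and 3 (limma adjusted p = 0.0591).

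*Plet1*, a surface protein of epithelial progenitors, ran from 5.93 to 11.71 with a median of 10.47 in the 67NR tumors and from 4.37 to 5.13 with a median of 4.66 in the 66cl4 tumors. Its groups did not overlap (difference 4.80 ± 0.85 SE, adjusted p = 0.00304), but 67NR tumors 1 and 3 read 5.93 and 7.34, where the other 4 read 9.99 to 11.71. *Nppb*, the precursor of B-type natriuretic peptide, was 3.85 higher in 67NR, and the gap was smaller in NSG mice (1.64; change with host 2.22 ± 0.51 SE, adjusted p = 0.0083). Also among the 15 genes with the largest differences were the adaptor ankyrin-G (*Ank3*, 3.78), the microtubule-associated kinase *Dclk1* (3.63), *Epb41l3* of the protein 4.1 family (3.43), *Fez1*, a kinesin adaptor (3.21), and the endocytic protein endophilin A3 (*Sh3gl3*, 2.96). *S100a16*, a calcium-binding protein, read 10.65 to 11.66 in 67NR and 7.70 to 8.56 in 66cl4, with nearly the same difference in the 3 contrasts (2.89, 2.80 in NSG mice and 2.91 in controls). The protease inhibitor *Cst6* (3.40) and the ubiquitin-like modifier *Ubd* (3.51) were also among the 15, as were *Tpsab1*, *Fcer1a* and *Cma1*, which are described with the immune genes.

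Among genes higher in 66cl4, the semaphorin *Sema3e*, a guidance cue for axons and vessels, differed most. It ran from 3.70 to 4.53 with a median of 4.06 in the 67NR tumors and from 9.66 to 10.53 with a median of 10.30 in the 66cl4 tumors. No tumor of either line came near the other line, and the difference of -6.17 ± 0.16 (SE, adjusted p = 2.88e-10) was -6.32 in NSG mice and -5.48 in controls. *Krt8*, the simple-epithelial keratin 8, ran from 5.65 to 8.79 with a median of 7.19 in the 67NR tumors and from 12.64 to 13.48 with a median of 13.04 in the 66cl4 tumors. The groups were apart by a wide margin (difference -5.91 ± 0.47 SE, adjusted p = 8.4e-06), with the spread lying in 67NR. *Omd* and *Ogn* are small leucine-rich proteoglycans of connective tissue, with differences of -5.83 ± 0.41 (SE, adjusted p = 2.51e-06) and -5.02 ± 1.12 (SE, adjusted p = 0.011). *Ogn* ran from 5.84 to 13.38 with a median of 7.63 in the 67NR tumors and from 13.64 to 14.13 with a median of 13.93 in the 66cl4 tumors, and 67NR tumors 1 and 3 at 13.38 and 12.02 came close to the 66cl4 tumors while the other 4 read 5.84 to 7.80. *Prrx2*, a homeobox factor of mesenchyme (-4.85), *Islr* (-4.09), the lipocalin *Apod* (-4.58), the methyltransferase *Inmt* (-5.03), the kinase inhibitor *Pkia* (-4.83), the RNA-binding protein *Elavl2* (-4.48) and the apoptosis regulator *Pawr* (-3.93) showed no overlap between the lines.

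*Hoxa10*, a homeobox gene of body patterning, ran from 3.95 to 5.06 with a median of 4.34 in the 67NR tumors and from 7.87 to 9.07 with a median of 8.17 in the 66cl4 tumors. *Pcdhb7*, a clustered protocadherin, read 3.75 to 4.40 in 67NR and 7.95 to 8.61 in 66cl4. The probe set for *Vmn1r148*, a vomeronasal receptor gene of a large family whose members resemble each other, read 5.48 to 6.06 and 9.40 to 10.22, so the gene behind that signal is uncertain. The differences (-3.93, -4.11 and -4.20) were close to those in NSG mice (-3.98, -4.19 and -4.72).

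**Figure D3:**
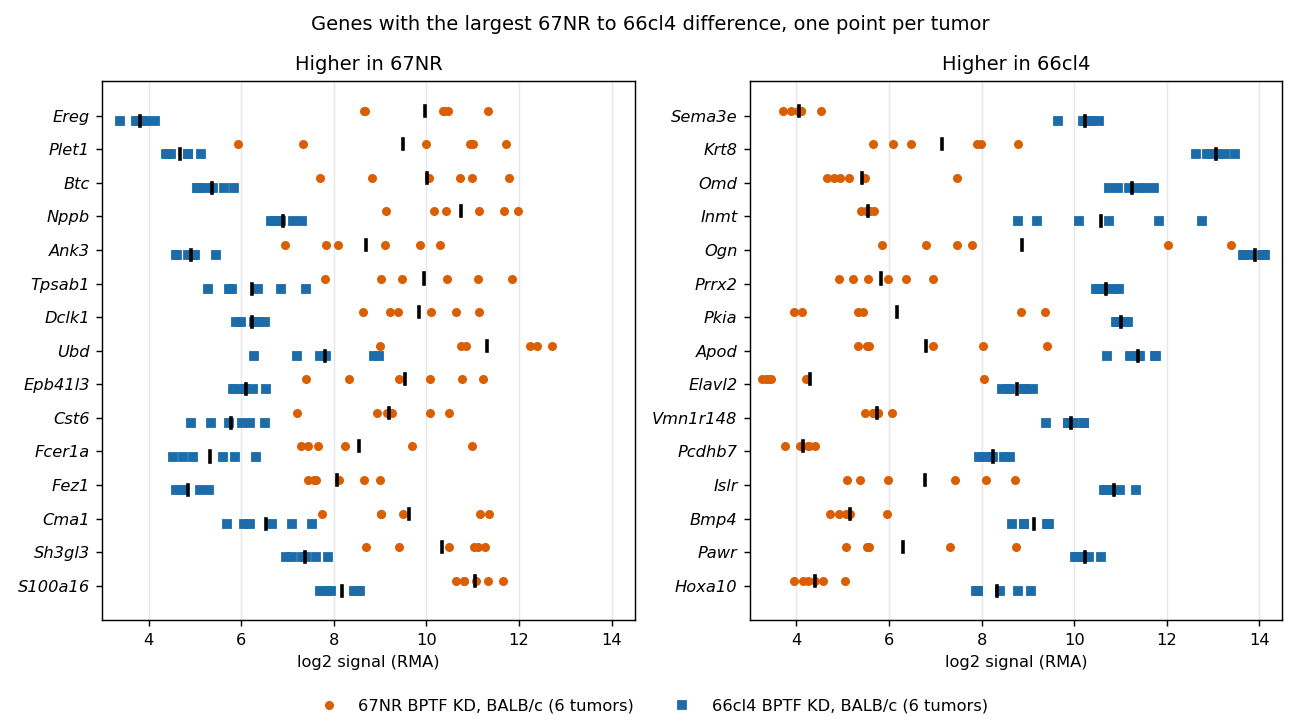
Log2 signal (horizontal axes) in each of the 12 BPTF KD tumors from BALB/c mice for the 15 genes most raised in 67NR (left) and in 66cl4 (right) among those without overlap; circles are 67NR, squares are 66cl4 and short black bars are group means. The 67NR circles of *Ogn*, *Pkia* and *Plet1* spread widely, whereas those of *Sema3e*, *Pcdhb7* and *S100a16* lie close together.

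*Bmp4*, a ligand of the bone morphogenetic protein (BMP) family that signals through SMAD proteins, ran from 4.72 to 5.96 with a median of 5.11 in the 67NR tumors and from 8.65 to 9.45 with a median of 9.17 in the 66cl4 tumors. All 66cl4 tumors were above all 67NR tumors (difference -3.97 ± 0.21 SE, adjusted p = 2.25e-07). Of 26 measured genes on the Wnt and BMP list, 8 were higher in 66cl4 and 1 in 67NR (median -0.13). Known BMP target genes were among the 8: the inhibitory SMADs *Smad6* and *Smad7* (-1.42 and -0.45, adjusted p = 0.000433 and 0.0173) and the DNA-binding inhibitors *Id1* and *Id3* (-0.76 and -0.66, adjusted p = 0.0304 and 0.0291). *Grem1*, a secreted BMP antagonist, and the ligand *Wnt7b* were also higher in 66cl4 (-1.59 and -1.13, adjusted p = 1.57e-05 and 0.000157). In NSG mice 13 genes of the list were higher in 66cl4 and 4 in 67NR, beside 22.1% and 20.4% of all genes there. The Wnt and BMP count higher in 67NR was 0 without 67NR tumor 2, 3 or 4 or 66cl4 tumor 2, 3, 4, 5 or 6, and that higher in 66cl4 was 5 without 66cl4 tumor 6. Of the Wnt and BMP genes, 0 were higher in 67NR and 10 in 66cl4 (median -0.27) with 67NR tumors 1 and 3 both left out. *Id1* missed the threshold in 8 and *Id3* in 5 of the 12 fits with 1 tumor left out.

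Defining epithelial markers did not move together. *Krt18*, the partner of keratin 8, ran from 4.32 to 7.23 with a median of 5.39 in the 67NR tumors and from 7.0 to 9.03 with a median of 7.56 in the 66cl4 tumors (difference -2.16 ± 0.47 SE, adjusted p = 0.00978; the ranges overlapped). E-cadherin (*Cdh1*), *Epcam* and *Krt19* had medians of 5.27, 6.19 and 5.74 in 67NR and 4.79, 5.23 and 4.83 in 66cl4, below the median gene at 7.65 in both lines, and did not pass the test. Vimentin (*Vim*), the filament of mesenchymal cells, was bright in both (medians 14.17 and 13.68, adjusted p = 0.184). Of 34 measured epithelial genes 4 were higher in 66cl4 (*Krt8*, *Krt18*, the desmosomal protein *Pkp2* and the protease inhibitor *Spint2*) and 1 in 67NR, the membrane protease *St14* (0.78). Over all genes 8.17% were higher in 66cl4 and 5.87% in 67NR. *Pkp2* differed by -2.50, with 67NR tumors spread over 5.48 to 9.12. Of 22 mesenchymal genes 4 were higher in 67NR, *Prrx1* (1.22), *Snai1* (0.63), *Snai2* (0.86) and *Msx2* (1.05), and 2 in 66cl4, the transcription factors *Twist1* (-0.99) and *Twist2* (-0.51). *Twist1* alone of the 6 had no overlap between the lines (8.29 to 9.82 against 10.09 to 10.51). The mesenchymal count higher in 67NR was 2 without 67NR tumor 5 or 66cl4 tumor 1, 2, 3, 4 or 6, and that higher in 66cl4 was 1 without 67NR tumor 4 or 5 or 66cl4 tumor 1, 3, 5 or 6. Of the mesenchymal genes, 8 were higher in 67NR and 3 in 66cl4 (median 0.21) with 67NR tumors 1 and 3 both left out. *Msx2* missed the threshold in 10, *Spint2* in 8 and *Snai2* and *Twist2* in 6 of the 12 fits with 1 tumor left out.

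3 genes of activated T and NK cells were higher in 67NR. *Ifng*, the cytokine interferon gamma, ran from 6.05 to 10.32 with a median of 8.15 in the 67NR tumors and from 4.47 to 6.52 with a median of 5.41 in the 66cl4 tumors. 5 of the 6 67NR tumors lay above every 66cl4 tumor, and the difference was 2.81 ± 0.61 (SE, adjusted p = 0.00978). *Tbx21*, the transcription factor T-bet of type 1 lymphocytes, ran from 5.25 to 7.55 with a median of 6.24 in the 67NR tumors and from 4.09 to 4.86 with a median of 4.39 in the 66cl4 tumors. Its groups did not overlap (difference 1.94 ± 0.39 SE, adjusted p = 0.00671). *Il2rb*, a receptor chain for IL-2 and IL-15 on T and NK cells, ran from 7.31 to 9.58 with a median of 8.22 in the 67NR tumors and from 6.07 to 7.0 with a median of 6.57 in the 66cl4 tumors, also without overlap (difference 1.72 ± 0.38 SE, adjusted p = 0.0101). In NSG mice, which lack mature T and NK cells, these 3 genes differed by 0.07, -0.09 and -0.15. There *Ifng* read 3.59 to 4.03 in 67NR and 3.57 to 3.89 in 66cl4, *Tbx21* 3.59 to 3.89 and 3.60 to 3.95, and *Il2rb* 5.11 to 5.35 and 5.18 to 5.67. The change of the line difference with the host was 2.75 ± 0.64 (SE, adjusted p = 0.00916) for *Ifng*, 2.03 ± 0.42 (SE, adjusted p = 0.00376) for *Tbx21* and 1.87 ± 0.40 (SE, adjusted p = 0.00511) for *Il2rb*. With both lines this low in NSG mice, the change restates the BALB/c difference and is no separate result.

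Of 16 measured T cell genes 6 were higher in 67NR and none in 66cl4 (median 1.29). They were *Cd6* (0.88), the signaling adaptor *Lat* (0.96), the costimulatory receptors *Cd28* (1.63) and *Icos* (1.30), *Cd5* (1.33) and the receptor chain *Cd3e* (0.63). The median stayed between 0.93 and 1.49 with 1 tumor left out. The T cell count higher in 67NR was 0 without 67NR tumor 4, 1 without 66cl4 tumor 3, 5 or 6, 2 without 67NR tumor 5 or 66cl4 tumor 1 or 4, 3 without 66cl4 tumor 2 and 11 without 67NR tumor 2. *Cd3d*, *Cd8a* and *Cd4* differed by 1.63, 1.66 and 0.32 and did not pass (adjusted p = 0.0847, 0.0811 and 0.125). In NSG mice the T cell median was -0.12 and 1 gene was higher in 67NR against 6 in 66cl4, beside 20.4% and 22.1% of all genes there. In BALB/c controls the median was 0.15. Of 14 B cell genes 1 passed, *Cd22* (1.41), beside 5.87% of all genes higher in 67NR, and *Cd79a* and *Cd79b* differed by -0.07 and 0.55 (adjusted p = 0.688 and 0.287). The B cell count higher in 67NR was 0 without 67NR tumor 4 or 5 or 66cl4 tumor 2, 3, 4, 5 or 6 and 3 without 67NR tumor 1. *Icos* and *Cd3e* missed the threshold in 9, *Cd28* in 8, *Cd5* and *Cd22* in 7, *Lat* in 4 and *Cd6* in 1 of the 12 fits with 1 tumor left out.

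Among 16 NK cell receptors and regulators, *Tbx21* and *Il2rb* were the 2 that passed, both higher in 67NR (list median 0.37). The activating receptor *Ncr1*, which is largely confined to NK cells and was central to the study's question, ran from 6.56 to 10.36 with a median of 7.93 in the 67NR tumors and from 7.07 to 8.52 with a median of 7.46 in the 66cl4 tumors. The 67NR range enclosed the whole 66cl4 range, and the difference was 0.63 ± 0.52 (SE, adjusted p = 0.468), or -0.07 without 67NR tumors 1 and 3. *Klrd1* and *Klrk1* came nearer the threshold (1.77 and 1.37, adjusted p = 0.0506 and 0.0764), and for both the difference changed with the host (2.70 ± 0.65 SE, adjusted p = 0.0102 and 2.04 ± 0.51 SE, adjusted p = 0.0139). NSG mice lack mature T and NK cells, which limits what that change can show. Of 14 cytotoxic granule genes 3 were higher in 67NR: granzyme A (*Gzma*, 1.78), *Nkg7* (2.04) and the protease *Ctsw* (1.40). Granzyme B (*Gzmb*) and perforin (*Prf1*) differed by 1.48 and 1.31 without passing (adjusted p = 0.104 and 0.0888). The cytotoxic median was 0.85. The NK cell count higher in 67NR was 5 without 67NR tumor 2. Of the NK cell genes, 2 were higher in 67NR and 2 in 66cl4 (median 0.06) with 67NR tumors 1 and 3 both left out. The cytotoxic count higher in 67NR was 0 without 66cl4 tumor 3 or 6, 1 without 67NR tumor 4 or 5 or 66cl4 tumor 5, 5 without 67NR tumor 2 and 6 without 67NR tumor 6, and that higher in 66cl4 was 1 without 67NR tumor 3. Of the cytotoxic genes, 3 were higher in 67NR and 1 in 66cl4 (median 0.31) with 67NR tumors 1 and 3 both left out. *Nkg7* missed the threshold in 7, *Ctsw* in 5 and *Gzma* in 3 of the 12 fits with 1 tumor left out.

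**Figure D4:**
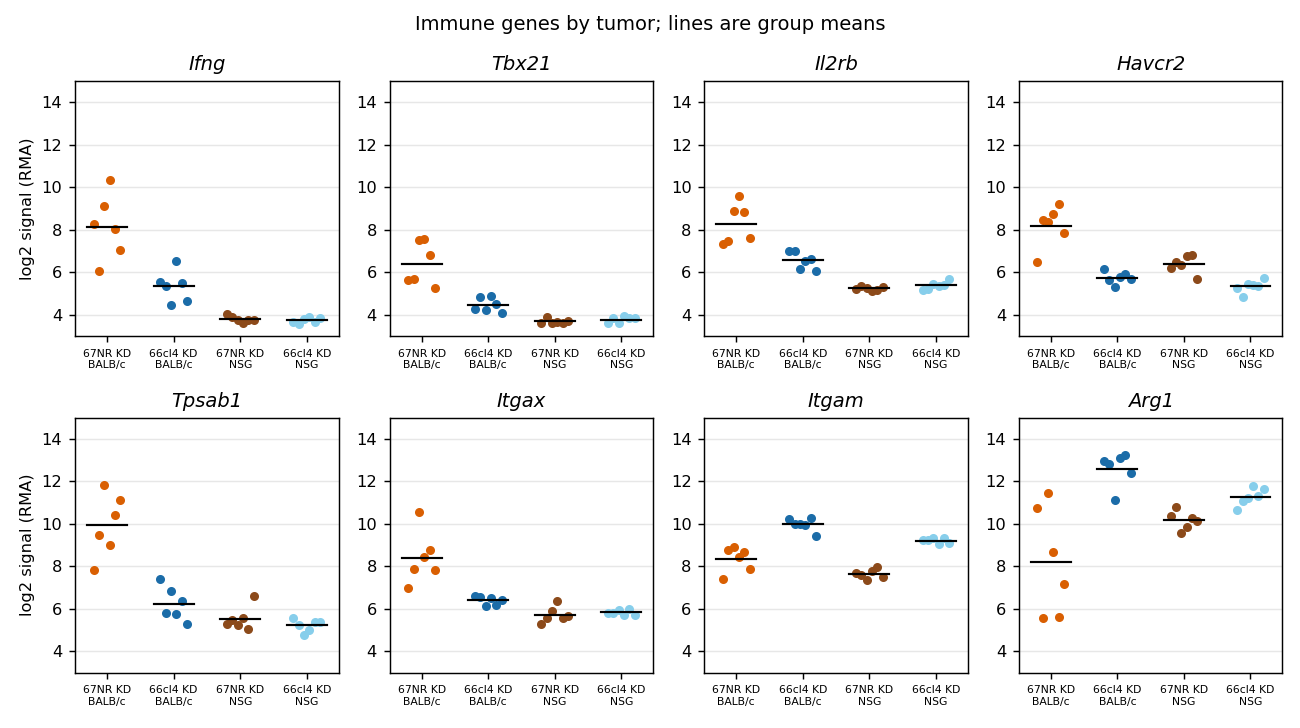
Log2 signal (vertical axes) of 8 immune genes in each BPTF KD tumor, by line and host, with 6 tumors per group and black lines at the group means. *Ifng*, *Tbx21*, *Il2rb*, *Tpsab1* and *Itgax* are raised in 67NR tumors from BALB/c mice, whereas in NSG mice the lines differ by 0.07, -0.09, -0.15, 0.31 and -0.11; *Itgam* is higher in 66cl4 in both hosts.

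The interferon gamma list held the cytokine and a receptor chain beside genes that respond to it. Of its 20 measured genes, 3 were higher in 67NR (*Ifng* itself, the feedback inhibitor *Socs1* and the guanylate-binding protein *Gbp7*). In 66cl4 2 were higher (*Socs3* and the receptor chain *Ifngr2*), and the list median was 0.80. *Socs1* ran from 7.96 to 8.72 with a median of 8.59 in the 67NR tumors and from 6.72 to 7.40 with a median of 7.12 in the 66cl4 tumors, with no overlap and a difference of 1.37 ± 0.15 (SE, adjusted p = 9.86e-05). Unlike the list median, *Socs1* was also apart in the other contrasts. It read 7.43 to 8.11 in 67NR and 6.92 to 7.29 in 66cl4 BPTF KD tumors from NSG mice. In BALB/c controls it read 8.07 to 8.30 and 6.70 to 6.98. The chemokine *Cxcl9* differed by 0.89 (adjusted p = 0.127). The list median was 0.37 without 67NR tumors 1 and 3, -0.30 in NSG mice and -0.01 in controls. The interferon gamma count higher in 67NR was 5 without 67NR tumor 2 and 7 without 67NR tumor 6, and that higher in 66cl4 was 0 without 67NR tumor 2, 3 or 5 or 66cl4 tumor 1, 2, 3 or 5 and 1 without 67NR tumor 4 or 6 or 66cl4 tumor 4 or 6. None of 22 type I interferon-stimulated genes passed (median -0.02), by limma or by the methods' t-test, and 0 had an unadjusted limma p under 0.05. The type I interferon count higher in 66cl4 was 2 without 67NR tumor 3. Of the type I interferon genes, 0 were higher in 67NR and 5 in 66cl4 (median -0.37) with 67NR tumors 1 and 3 both left out. Of 16 MHC class I and immunoproteasome genes 1 passed, beside 5.87% of all genes higher in 67NR. It was the class I heavy chain *H2-K1*, at 13.79 to 14.49 in 67NR and 13.44 to 13.76 in 66cl4 (difference 0.43 ± 0.13 SE, adjusted p = 0.0398). *B2m* differed by 0.25 (adjusted p = 0.0691). The MHC class I count higher in 67NR was 0 without 67NR tumor 4 or 5 or any 66cl4 tumor, 2 without 67NR tumor 6 and 3 without 67NR tumor 1. Of the MHC class I genes, 4 were higher in 67NR and 0 in 66cl4 (median 0.20) with 67NR tumors 1 and 3 both left out. Among 21 checkpoint and regulatory T cell genes 4 were higher in 67NR: the inhibitory receptors *Havcr2* (TIM-3, 2.44 ± 0.37 SE, adjusted p = 0.00106), *Pdcd1* (PD-1, 1.90) and *Lag3* (1.11) and the costimulatory receptor *Tnfrsf9* (1.10). In BPTF KD tumors from NSG mice, which lack mature T and NK cells, *Havcr2* read 5.68 to 6.82 in 67NR and 4.85 to 5.73 in 66cl4. *Tnfrsf9* read 7.37 to 8.96 and 6.03 to 7.01 there, so neither difference was confined to the host with lymphocytes. *Pdcd1* (3.70 to 4.21 and 3.88 to 4.38) and *Lag3* (5.33 to 5.82 and 5.21 to 5.79) largely overlapped in NSG mice. The ligands *Tgfb2* and *Tgfb3* were higher in 66cl4 (-0.72 and -1.07). *Cd274* (PD-L1) differed by 1.52 (adjusted p = 0.0724). The checkpoint count higher in 67NR was 2 without 67NR tumor 3, 4 or 5 or any 66cl4 tumor and 7 without 67NR tumor 2, and that higher in 66cl4 was 1 without 67NR tumor 2, 4 or 5 or 66cl4 tumor 3 or 4. *Ifngr2* missed the threshold in 10, *Pdcd1* and *Lag3* in 9, *Socs3* and *H2-K1* in 8, *Gbp7* in 6 and *Tgfb2* in 5 of the 12 fits with 1 tumor left out, and *Pdcd1* also missed it without 67NR tumors 1 and 3 (limma adjusted p = 0.0608).

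Of 20 measured macrophage genes, 6 were higher in 66cl4 and none in 67NR (median -0.30, and -0.98 in NSG mice). *Itgam*, the integrin CD11b of myeloid cells, ran from 7.39 to 8.89 with a median of 8.55 in the 67NR tumors and from 9.45 to 10.29 with a median of 10.00 in the 66cl4 tumors. *Cd14*, a coreceptor for lipopolysaccharide, read 10.30 to 11.13 in 67NR and 11.89 to 12.41 in 66cl4. Neither gene overlapped between the lines (differences -1.64 ± 0.25 SE, adjusted p = 0.000958 and -1.34 ± 0.15 SE, adjusted p = 0.000108), and both differed likewise in NSG mice (-1.58 and -1.86) and in controls (-1.84 and -1.32). *Arg1*, the arginase of alternatively activated macrophages, differed most (-4.39 ± 0.97 SE, adjusted p = 0.0105) but read 10.77 and 11.46 in 67NR tumors 1 and 3, where the other 4 read 5.56 to 8.69 and the 66cl4 tumors 11.11 to 13.25. The scavenger receptors *Msr1*, *Mrc1* and *Cd163* were -0.94, -0.87 and -1.27. The broad markers *Adgre1*, *Csf1r* and *C1qa* differed by -0.30, 0.31 and -0.30 and did not pass (adjusted p = 0.514, 0.643 and 0.152). The macrophage count higher in 67NR was 1 without 67NR tumor 1. Of the macrophage genes, 1 was higher in 67NR and 8 in 66cl4 (median -0.37) with 67NR tumors 1 and 3 both left out. *Cd163* missed the threshold in 7 of the 12 fits with 1 tumor left out, and *Cd163* also missed it without 67NR tumors 1 and 3 (limma adjusted p = 0.062).

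Of 30 chemokines 7 were higher in 66cl4 and 3 in 67NR. *Ccl9*, a chemokine of myeloid cells, read 10.42 to 11.48 in 67NR and 12.73 to 13.21 in 66cl4 (difference -1.75 ± 0.17 SE, adjusted p = 3.27e-05), and *Ccl6* read 11.58 to 13.05 and 13.51 to 14.03 (-1.28 ± 0.23 SE, adjusted p = 0.00356). The neutrophil attractants *Cxcl2* and *Cxcl5* were -1.50 and -1.10, and the neutrophil proteins *S100a9* and *S100a8* -2.06 and -1.24, all higher in 66cl4. These 4 were the neutrophil genes that passed in that direction, of 19 measured; the granule protein *Ltf* (0.87) and *Lcn2* (1.02) passed the other way, and the neutrophil receptor *Cxcr2* differed by -0.10 (adjusted p = 0.614). The neutrophil count higher in 67NR was 1 without 67NR tumor 2, 5 or 6 or 66cl4 tumor 1, 2, 3, 4 or 5. Of the neutrophil genes, 3 were higher in 67NR and 4 in 66cl4 (median -0.04) with 67NR tumors 1 and 3 both left out. Chemokines higher in 67NR were *Cx3cl1*, which attracts T and NK cells (1.48 ± 0.25 SE, adjusted p = 0.00198, no overlap), *Ccl5* (1.52) and *Ccl22* (0.83). The chemokine count higher in 67NR was 1 without 67NR tumor 4 or any 66cl4 tumor and 5 without 67NR tumor 2. Of the chemokine genes, 4 were higher in 67NR and 9 in 66cl4 (median -0.01) with 67NR tumors 1 and 3 both left out. Of 15 dendritic cell genes 4 were higher in 67NR: the integrin *Itgax* (CD11c, 6.96 to 10.57 against 6.14 to 6.62), the uptake receptor *Ly75* (1.00), the costimulator *Cd80* (1.60) and the chemokine receptor *Xcr1* of cross-presenting cells (0.87). *Xcr1* read 4.44 to 5.99 in 67NR and 4.27 to 4.60 in 66cl4, below the median gene in both lines. Of the dendritic cell genes, 4 were higher in 67NR and 1 in 66cl4 (median 0.25) with 67NR tumors 1 and 3 both left out. For *Itgax* and *Cd80* the difference of 2.01 and 1.60 changed with the host, by 2.12 ± 0.50 (SE, adjusted p = 0.00932) and 2.01 ± 0.35 (SE, adjusted p = 0.00101). The lines did not differ detectably in *Flt3* (0.20, adjusted p = 0.32). *Xcr1* missed the threshold in 9, *Lcn2* and *Ccl5* in 8 and *S100a8* and *Ccl22* in 7 of the 12 fits with 1 tumor left out.

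3 genes of mast cells, which store proteases and bind IgE, stood among the 15 most raised in 67NR: the tryptase *Tpsab1*, the chymase *Cma1* and the IgE receptor chain *Fcer1a*. *Tpsab1* read 7.82, 9.47, 11.84, 9.01, 10.44 and 11.11 in 67NR tumors 1 to 6 and 7.41, 5.80, 6.86, 5.74, 6.37 and 5.28 in the 66cl4 tumors. Its difference was 3.71 ± 0.61 (SE, adjusted p = 0.00187), and its lack of overlap was part of the rule that chose the 15. *Cma1* and *Fcer1a*, chosen by the same rule, differed by 3.09 ± 0.57 (SE, adjusted p = 0.00361) and 3.21 ± 0.60 (SE, adjusted p = 0.00397). A list of 9 mast cell genes was then put together after these values were seen, so its count of 7 higher in 67NR is a description: beside the 3 it held the proteases *Cpa3* (2.72), *Mcpt4* (2.56) and *Tpsb2* (2.66) and the receptor *Kit* (1.52), while *Ms4a2* and *Hdc* differed by 0.84 and 0.44 (adjusted p = 0.108 and 0.105). The tryptase genes *Tpsab1* and *Tpsb2* are close paralogs, so their signals are not independent. The level of the 9 genes, their mean log2 signal, ran from 7.45 to 9.77 in 67NR and from 5.64 to 6.70 in 66cl4. Without 67NR tumors 1 and 3 the median difference was 2.66, the same as with them. Those tumors read lowest and highest of the 67NR group for *Tpsab1* and *Cma1*, so leaving out both cannot tell whether either carried it. With 1 tumor left out the median difference ran from 2.22 to 2.90, the lowest without 67NR tumor 6. In NSG mice the median was 0.24 and in controls 0.89, and the difference changed with the host for *Tpsab1* by 3.40 ± 0.68 (SE, adjusted p = 0.0031). *Tpsab1* read 5.03 to 6.60 in 67NR and 4.75 to 5.59 in 66cl4 in NSG mice, so this change largely restates the BALB/c difference.

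Vessel genes were split. Of 20 endothelial genes 8 were higher in 67NR and 2 in 66cl4 (median 0.58, and 0.84 in NSG mice). The lymphatic growth factor *Vegfc* read 3.88 to 5.96 in 67NR and 8.21 to 9.38 in 66cl4 (difference -3.87 ± 0.35 SE, adjusted p = 2.18e-05). *Lyve1*, a hyaluronan receptor of lymphatic vessels and of some macrophages, read 4.88 to 8.49 and 8.92 to 10.66 (-3.22 ± 0.62 SE, adjusted p = 0.00495). Both were higher in 66cl4 without overlap. Those higher in 67NR included the VEGF receptor *Kdr* (0.99), the junction protein *Esam* (0.75), *Plvap* of fenestrated vessels (1.45), *Robo4* (0.76) and *Pecam1* (1.36). VE-cadherin (*Cdh5*) differed by 0.80 (adjusted p = 0.0666). *Pecam1* missed the threshold in 7 of the 12 fits with 1 tumor left out.

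Of 20 fibrillar collagen and crosslinking genes, 3 were higher in 67NR (*Col6a3*, *Col5a3* and the chaperone *Serpinh1*) and 3 in 66cl4 (median 0.06), beside 5.87% and 8.17% of all genes. In NSG mice 18 were higher in 67NR (median 1.72), beside 20.4% of all genes there. For 14 the line difference was lower in BALB/c mice by the interaction test, beside 4.74% of all genes. In BALB/c mice the mean log2 level of the list was 10.10 and 9.84 in 67NR tumors 1 and 3 and 8.38 to 9.23 in the other 4. The collagen count higher in 67NR was 1 without 66cl4 tumor 1 or 6. Of the collagen genes, 3 were higher in 67NR and 5 in 66cl4 (median -0.32) with 67NR tumors 1 and 3 both left out. *Col1a1*, the main fibrillar collagen, differed by 0.83 (adjusted p = 0.289) and by 3.04 in NSG mice, a change of -2.21 ± 0.63 (SE, adjusted p = 0.0305). The lysyl hydroxylase *Plod1* was higher in 66cl4 in BALB/c mice (difference -0.73 ± 0.16 SE, adjusted p = 0.0111) and higher in 67NR in NSG mice (1.06), with a change of -1.79 ± 0.24 (SE, adjusted p = 8.15e-05). *Col4a5* of basement membranes turned in the same way (-1.83 and 0.61), whereas *Col4a1* (1.17 and 1.52) and *Nid1* (1.40 and 1.59) were higher in 67NR in both hosts. The protease inhibitor *Timp1* read 12.19 to 12.80 in 67NR and 10.81 to 11.25 in 66cl4 (difference 1.48 ± 0.13 SE, adjusted p = 2.16e-05). The membrane-bound inhibitor *Reck* read 6.05 to 7.02 and 7.74 to 8.41 (-1.32 ± 0.17 SE, adjusted p = 0.000295), and the aggrecanases *Adamts1* and *Adamts5* were -1.41 and -2.19. Of 18 fibroblast markers 2 were higher in each line, beside 5.87% of all genes higher in 67NR and 8.17% in 66cl4. Their mean log2 level was 10.45 and 10.12 in 67NR tumors 1 and 3, 8.07 to 8.98 in the other 4 and 9.21 to 9.57 in 66cl4. The fibroblast count higher in 67NR was 1 without 67NR tumor 4 or any 66cl4 tumor, and that higher in 66cl4 was 1 without 67NR tumor 2 or 4 or 66cl4 tumor 1, 2 or 3 and 4 without 67NR tumor 1. Of the fibroblast genes, 3 were higher in 67NR and 8 in 66cl4 (median -0.56) with 67NR tumors 1 and 3 both left out. *Pdgfra* and *Pdgfrb* differed by -0.57 and -0.89 (adjusted p = 0.221 and 0.115). *Serpinh1* missed the threshold in 6 and *Col5a3* in 4 of the 12 fits with 1 tumor left out.

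Heparan sulfate chains on proteoglycans are ligands of natural cytotoxicity receptors, and the study asked after them. Of 28 genes of their synthesis and modification 2 were higher in each line, beside 5.87% of all genes higher in 67NR and 8.17% in 66cl4, and the median was 0.00. The heparan sulfate count higher in 67NR was 4 without 67NR tumor 6 and 5 without 67NR tumor 1, and that higher in 66cl4 was 4 without 67NR tumor 1. Of the heparan sulfate genes, 5 were higher in 67NR and 5 in 66cl4 (median 0.02) with 67NR tumors 1 and 3 both left out. The sulfate donor synthase *Papss2* (1.82, adjusted p = 0.0153) and the lysosomal sulfatase *Sgsh* (0.69, adjusted p = 0.0201) were higher in 67NR. *Extl2*, a glycosyltransferase (-0.80, adjusted p = 0.0081), and the 2-O-sulfotransferase *Hs2st1* (-0.49, adjusted p = 0.00962) were higher in 66cl4. *Hs2st1* was higher in 67NR in NSG mice (0.37), with a change of -0.86 ± 0.12 (SE, adjusted p = 0.000141). Among 15 proteoglycan cores, *Gpc4* was higher in 67NR (1.60) and 3 were higher in 66cl4, *Sdc4* with the smallest p (-0.57). The proteoglycan count higher in 67NR was 2 without 67NR tumor 1. Of the proteoglycan genes, 2 were higher in 67NR and 5 in 66cl4 (median -0.11) with 67NR tumors 1 and 3 both left out. Of 14 measured NK receptor ligands and adhesion genes, *Pvr*, a ligand of the activating receptor DNAM-1 and of TIGIT (0.67), and *Vcam1* (0.99) were higher in 67NR, and *Tnfrsf10b* (-0.79) and *Tnfsf9* (-0.57) in 66cl4. The NK ligand count higher in 66cl4 was 1 without 67NR tumor 2 or 4 or 66cl4 tumor 1, 2, 3, 5 or 6. Of the NK ligand genes, 2 were higher in 67NR and 4 in 66cl4 (median 0.03) with 67NR tumors 1 and 3 both left out. *Tnfsf9* missed the threshold in 7 of the 12 fits with 1 tumor left out.

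Of 24 hypoxia and glycolysis genes 6 were higher in 66cl4 and 1 in 67NR (median -0.27). *Car9*, the carbonic anhydrase induced by low oxygen, ran from 5.27 to 7.88 with a median of 5.81 in the 67NR tumors and from 7.80 to 9.20 with a median of 8.72 in the 66cl4 tumors. Only 67NR tumor 3, at 7.88, reached the 66cl4 range (difference -2.53 ± 0.39 SE, adjusted p = 0.00112). *Ldha*, which converts pyruvate to lactate, ran from 12.23 to 13.17 with a median of 12.57 in the 67NR tumors and from 13.29 to 13.46 with a median of 13.40 in the 66cl4 tumors, without overlap (difference -0.75 ± 0.14 SE, adjusted p = 0.00397). *Pdk1*, the kinase that keeps pyruvate out of mitochondria, differed by -2.16 ± 0.52 (SE, adjusted p = 0.0168) and read 8.09 in 67NR tumor 3 beside 7.96 to 8.52 in 66cl4. The glycolytic enzymes *Pfkl*, *Tpi1* and *Pkm* were -0.98, -0.59 and -0.30, and *Aldoc* was the 1 gene higher in 67NR (0.61). In NSG mice 13 genes were higher in 67NR and 3 in 66cl4 (median 0.67), beside 20.4% and 22.1% of all genes there. For 10 genes the interaction test passed, all with a lower difference in BALB/c mice, beside 4.74% of all genes. For *Pdk1* the change was -3.20 ± 0.59 (SE, adjusted p = 0.00144). Controls in BALB/c mice had a median of -0.53. The hypoxia and glycolysis count higher in 67NR was 3 without 67NR tumor 1 or 6, and that higher in 66cl4 was 10 without 67NR tumor 3. Of the hypoxia and glycolysis genes, 3 were higher in 67NR and 10 in 66cl4 (median -0.31) with 67NR tumors 1 and 3 both left out. *Pkm* missed the threshold in 3 of the 12 fits with 1 tumor left out.

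The 250 bases upstream of the annotated starts (RefSeq, GRCm38.p6) were searched on both strands for ACGTG, the core letters of the hypoxia response element, which read CACGT on the other strand. They are shown for *Ldha* and *Car9*, the genes of the list described first, at chr7:46845554-46845803 and chr4:43506776-43507025, both on the plus strand and 5′ to 3′, with matches in capitals.
Ldha: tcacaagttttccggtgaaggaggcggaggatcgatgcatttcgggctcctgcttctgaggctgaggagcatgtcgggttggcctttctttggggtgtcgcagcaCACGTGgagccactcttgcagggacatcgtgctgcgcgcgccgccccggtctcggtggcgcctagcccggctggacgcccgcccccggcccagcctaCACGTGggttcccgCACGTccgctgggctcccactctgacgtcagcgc
Car9: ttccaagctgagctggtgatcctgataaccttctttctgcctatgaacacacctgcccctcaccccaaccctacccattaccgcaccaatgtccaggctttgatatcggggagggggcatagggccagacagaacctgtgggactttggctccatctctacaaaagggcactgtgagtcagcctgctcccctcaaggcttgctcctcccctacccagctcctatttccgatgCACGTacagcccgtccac
Matches on the 2 strands overlap where CACGTG is spelled, so the 5 matches of *Ldha* lie in 3 places. A match stood in at least 1 window of 3 of the 6 genes higher in 66cl4 (*Ldha*, *Car9* and *Pkm*) and of 11 of the other 16 list genes with a window. Over all 27025 genes with windows 18.5% held a match. A match describes letters and shows no use of the site.

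Of 35 measured cell cycle genes 5 were higher in 67NR and 3 in 66cl4 (median 0.41). The replication helicase *Mcm4* (1.10), the ribonucleotide reductase *Rrm2* (1.39) and cyclin E1 (*Ccne1*, 0.58) were higher in 67NR, as were *Cdkn1a* and *Cdkn2a*, which encode inhibitors of the cycle (1.15 and 0.79). The mitotic motor *Kif11* (-0.74) and the kinase inhibitors *Cdkn1b* (8.99 to 9.98 against 10.48 to 10.81, -1.19 ± 0.15 SE, adjusted p = 0.000315) and *Cdkn2c* (-0.97 ± 0.14 SE, adjusted p = 0.000965) were higher in 66cl4. *Mki67* differed by 0.63 (adjusted p = 0.064). The cell cycle count higher in 67NR was 3 without 67NR tumor 4 or 5 or 66cl4 tumor 4, 8 without 67NR tumor 1 and 18 without 67NR tumor 3. Of the cell cycle genes, 23 were higher in 67NR and 3 in 66cl4 (median 0.62) with 67NR tumors 1 and 3 both left out. Complement genes were higher in 66cl4 for 4 of 16 and in 67NR for none, with *Clu* at -2.09 ± 0.30 (SE, adjusted p = 0.000671) and *Masp1* at -1.52 ± 0.18 (SE, adjusted p = 0.000176); *Clu* was higher in 67NR in NSG mice (1.60), a change of -3.69 ± 0.49 (SE, adjusted p = 7.86e-05). The complement count higher in 67NR was 1 without 67NR tumor 1 or 6 and 2 without 67NR tumor 2, and that higher in 66cl4 was 2 without 66cl4 tumor 3, 4, 5 or 6 and 8 without 67NR tumor 3. Of the complement genes, 1 was higher in 67NR and 8 in 66cl4 (median -0.38) with 67NR tumors 1 and 3 both left out. *Kif11* missed the threshold in 10, *Cdkn2a* in 8 and *Cdkn1a* in 4 of the 12 fits with 1 tumor left out.

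The level of 22 skeletal muscle genes, their mean log2 signal, was 5.66 to 6.99 in 5 of the 67NR tumors, 10.68 in 67NR tumor 3 and 6.55 to 10.11 in the 66cl4 tumors. The defining markers *Acta1* and *Ckm* read 12.30 and 12.64 in 67NR tumor 3 and up to 12.37 and 12.58 in 66cl4. 3 genes passed, higher in 66cl4 (*Eno3*, *Myl1* and *Mylpf*; -1.56, -4.48 and -4.04). The muscle count higher in 66cl4 was 1 without 67NR tumor 2 or 5 or 66cl4 tumor 1, 3, 4, 5 or 6, 6 without 66cl4 tumor 2 and 18 without 67NR tumor 3. Of the muscle genes, 0 were higher in 67NR and 17 in 66cl4 (median -2.88) with 67NR tumors 1 and 3 both left out. The part of muscle tissue in the other differences was not tested. Of 16 adipocyte genes 2 passed, both higher in 67NR (*Fabp4* and *Pparg*, 0.90 and 0.56), beside 5.87% of all genes. The adipocyte count higher in 67NR was 0 without 67NR tumor 5 or 66cl4 tumor 3, 4 or 6 and 1 without 67NR tumor 3 or 6 or 66cl4 tumor 1 or 5. Of the adipocyte genes, 4 were higher in 67NR and 0 in 66cl4 (median 0.29) with 67NR tumors 1 and 3 both left out. *Adipoq* ran from 3.47 to 11.57 with a median of 8.60 in the 67NR tumors and from 7.42 to 9.34 with a median of 8.24 in the 66cl4 tumors, with overlapping ranges. *Mylpf* missed the threshold in 10, *Myl1* and *Pparg* in 7 and *Fabp4* in 5 of the 12 fits with 1 tumor left out, and *Pparg* also missed it without 67NR tumors 1 and 3 (limma adjusted p = 0.0717).

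The line difference itself changed with the host for 1116 genes by the limma interaction: it was higher in BALB/c mice for 528 and lower for 588. The genes with the largest changes upward were *Cxcl13*, a B cell chemokine (4.86 ± 0.77 SE, adjusted p = 0.000419), the formyl peptide receptor *Fpr2* (4.32 ± 0.67 SE, adjusted p = 0.000312), *Tpsab1*, *Plet1* and the myeloid lectin *Clec4d* (3.09 ± 0.46 SE, adjusted p = 0.0002). *Cxcl13*, *Fpr2* and *Clec4d* were lower in 67NR in NSG mice (-5.54, -4.77 and -3.72) and did not differ past the threshold in BALB/c mice (-0.68, -0.45 and -0.64). The largest downward were *Rpl39l* (-5.57 ± 1.35 SE, adjusted p = 0.0113), *C1qtnf3* (-4.78 ± 1.03 SE, adjusted p = 0.00518), *Matn2* (-4.65 ± 1.07 SE, adjusted p = 0.00836), the troponin *Tnni2* and *Ogn*. For *Rpl39l* and *Matn2* the BALB/c difference (1.50 and 1.46) came from tumors 1 and 3 and was -0.67 and -0.27 without them. Of the 1116 genes 351 also differed between the lines in BALB/c mice, 163 of them without passing in NSG mice.

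No gene passed the test of whether the line difference differed between BPTF KD and control tumors in BALB/c mice (limma interaction over 18 tumors, 0.0% of genes, smallest adjusted p = 0.485; 1195 genes had an unadjusted p under 0.05). With weights per array, the same interaction passed for 2196 genes.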

How the data were processed

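The authors deposited log2 values of Affymetrix arrays after robust multi-array averaging (RMA, version not given in the sources used here). Labelled RNA came from macrodissected tumors from which necrotic tissue was removed. Of 22690 probe sets, 20393 had 1 gene symbol, and the brightest probe set over all 36 tumors stood for each of 12394 genes. Groups came from the labels. Hairpins were not assigned to tumors and were not used. Each comparison was fitted with limma 3.58.1 in R 4.3.3 (lmFit, eBayes) and p-values were adjusted by Benjamini-Hochberg across the 12394 genes, with calls at an adjusted p under 0.05. Every adjusted p is from these fits. The p-values reflect how far tumors of one group varied. The hairpin of each tumor is not labelled, so that spread may include differences between hairpins. No fit took knockdown lines as replicates. Exact permutation tests were two-sided. Single-symbol names were those of the platform annotation. In simulated data on these 12394 genes with 200 changed genes, 79% of changes of size 1 and 98% of size 2 on the log2 scale were recovered for this comparison, and 22 unchanged genes were called. The share of false calls in that 1 simulation was therefore above 0.05, the level the adjustment aims at. The simulation kept the spread of each line but drew genes independently, unlike tumors in which many genes move together.

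The tumors, gene lists and tests were chosen with earlier results of these data known. Named genes were the 15 largest differences in each direction among called genes without overlap and with a higher group mean at or above the median gene, up to 6 members of each list with the smallest p, fixed cell type markers, list members and the largest changes with the host. Mast cell genes and *Rpl39l* by tumor were singled out after their values were seen. Alternatives were the samples in the fit, the methods' t-test, a filter on dim genes, quantile normalization, centring, the probe set rule, array weights, RNA integrity, a replicate block and leaving out tumors. Gene coordinates are RefSeq's (GRCm38.p6). Heparanase and *Ndst1* were not analysed here.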

Additional observations from a re-analysis of the deposited data

Results flagged for a closer look

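A single tumor stood apart from the other 5 of its group in 31 of 450 checks, by a gap above the critical share of the group's range for 6 tumors (Dixon's test at the 95% level), which chance alone gives in about 1 of 20 groups. Among the 67NR BPTF KD tumors from BALB/c mice, tumor 1 read 7.46 for *Omd*, 8.06 for *Elavl2* and 11.71 for *Serpinh1*. For 67NR tumor 2 the log2 signals were 5.66 for *St14*, 10.54 for *Msr1* and 7.03 for *Aldoc*. For 67NR tumor 3 the log2 signals were 5.96 for *Bmp4*, 14.78 for *B2m*, 7.88 for *Car9*, 12.63 for *Mylpf*, 12.64 for *Ckm*, 11.83 for *Tnni2*, 7.26 for *Kif11* and 10.68 for the mean level of the list Skeletal muscle. For 67NR tumor 5 the log2 signals were 10.42 for *Ccl9*. For 67NR tumor 6 the log2 signals were 8.34 for *Bptf*, 7.06 for *Cdh5* and 6.05 for *Reck*. Among the 66cl4 BPTF KD tumors from BALB/c mice, tumor 1 read 9.66 for the mean level of the list NURF complex. For 66cl4 tumor 2 the log2 signals were 6.28 for *Krt19*, 5.96 for *Cd80*, 8.01 for *Myl1* and 8.17 for *Mylpf*. For 66cl4 tumor 3 the log2 signals were 7.91 for *C1qtnf3*. For 66cl4 tumor 4 the log2 signals were 6.37 for *Sgsh*. For 66cl4 tumor 5 the log2 signals were 10.30 for *Prrx1*. For 66cl4 tumor 6 the log2 signals were 5.88 for *Cd79b*, 7.56 for *Tgfb3*, 9.08 for *Wnt7b*, 10.11 for the mean level of the list MHC class II and 9.80 for the mean level of the list Cell cycle and DNA replication. The part of these single tumors in the line differences is given by the leave-one-out values.

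The line difference in BPTF KD tumors differed between BALB/c and NSG mice for 1116 genes (limma interaction, Benjamini-Hochberg adjusted p under 0.05). Of the genes named for a large line difference or a large change with the host, the line difference was higher in BALB/c mice by 4.86 for *Cxcl13*, 4.32 for *Fpr2*, 3.40 for *Tpsab1*, 3.20 for *Plet1*, 3.09 for *Clec4d*, 2.98 for *Fcer1a*, 2.69 for *Cma1*, 2.22 for *Nppb*, 2.19 for *Btc* and 1.53 for *Ereg*. It was lower in BALB/c mice for the others, with changes of -5.57 for *Rpl39l*, -4.78 for *C1qtnf3*, -4.65 for *Matn2*, -4.26 for *Ogn*, -4.26 for *Tnni2*, -2.50 for *Apod*, -2.42 for *Elavl2* and -1.77 for *Fez1*.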

How the results depend on the processing

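The count of genes that differed between the lines in BPTF KD tumors from BALB/c mice (1741) was 3543 with all 36 tumors in the fit, 2765 over all probe sets, 4372 with array weights and 2837 with RNA integrity as a covariate. With 67NR tumors 1 and 3 both left out, an alternative added after the data were seen, it was 3611, and leaving out each tumor in turn gave 1186 to 2774. In NSG mice (5265) it was 8937 over all probe sets, and 4632 to 5739 with tumors left out in turn. In controls (3239) it was 1861 by the methods' t-test and 5335 over all probe sets, and 2147 to 3618 with tumors left out. The change of the difference with the host (1116) passed for 1768 over all probe sets, 2690 with array weights, 1720 with the integrity covariate and 824 to 1450 with tumors left out, and subtracting array medians moved the share with a higher difference in BALB/c mice from 47.3% to 58.6%. The change with the knockdown label (0) passed for 1 gene with all 36 tumors, for 2196 with array weights and for 0 to 1 with tumors left out. *Bptf* differed by 0.96 and passed with all 36 tumors (0.9633) and after subtracting array medians (0.9625), as it did with array weights (1.03) and the integrity covariate (0.97), and leaving out tumors gave 0.803 to 1.271, with adjusted p of 0.000557 to 0.129 (limma).

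The replicate number as a block (replicate block) gave 1096 genes. Deviations of same-numbered tumors correlated at -0.255 to 0.079 and 1 of 6 numbers matched best with itself, so the tumors shared only a number. Of 149 named genes that passed, 97 passed under every alternative run and 0 reversed. Genes that did not pass and changed sign were *Adipoq*, at -1.21 to 0.414 with tumors left out, and, without 67NR tumors 1 and 3, *Smarca1* (-0.12), *Ncr1* (-0.066), *Rpl39l* (-0.67) and *Matn2* (-0.27). The causes were not tested. The number of arrays limits the precision, above all in the variable 67NR group.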
